A study of Mus musculus with 8 samples.

Results

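Glucocorticoid receptor (GR) binding was examined around 5 genes of mouse liver: the CCAAT/enhancer-binding protein (C/EBP) genes Cebpa, Cebpb, Cebpd and Cebpg, and Ptpn1, the next protein-coding gene to start downstream of Cebpb apart from Tmem189, which runs over Cebpb on the other strand. The peaks came from chromatin immunoprecipitation followed by sequencing (ChIP-seq), and overlapping peaks of 6 GR libraries were merged into sites. A site was assigned to a gene when its centre lay within 200 kb of the gene start (mm10, GENCODE M21). By this rule 134 of 51431 sites in the series belonged to the 5 genes, which are 5 of 21951 annotated protein-coding genes. The 5 genes were chosen by the presence and the rank of their peaks in these same lists, so presence and rank are given as a description, without a test.

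All mice were C57BL/6J males kept on regular chow, and the tissue was snap-frozen liver collected at the start of the dark phase. The 3 groups of 2 GR libraries each were night-fed controls (ctrl.), calorically restricted mice (cal. res.) and night-fed mice given corticosterone by daily injection (CORT). No deletion, transgene or knockdown was involved. A 7th list came from FOXO1 ChIP-seq of calorically restricted livers, 2 libraries that the authors merged before calling peaks, and it carries no replicate spread. The methods of the study call the replicates biological. Whole liver was used, so a hepatocyte peak and a peak of another liver cell type cannot be told apart, and no marker genes were measured in these files against which to check the tissue.

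C/EBP proteins are basic leucine zipper transcription factors that bind DNA as pairs with one another. C/EBPα keeps the hepatocyte differentiated and sustains glucose and lipid metabolism, C/EBPβ and C/EBPδ are induced by hormones and in the acute phase response, and C/EBPγ lacks a strong activation domain and acts mainly through its partners. Ptpn1 encodes the tyrosine phosphatase PTP1B, which removes phosphate from the insulin receptor and from the kinases JAK2 and TYK2. GR itself is activated by corticosterone and binds a pair of inverted half-sites, the glucocorticoid response element (GRE), or sits at elements of other factors. FOXO1 is a forkhead factor that is nuclear when insulin is low.

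The genes lay in 3 blocks. Cebpb (ENSMUSG00000056501.3, chr2:167688915-167690418, plus strand) and Ptpn1 (ENSMUSG00000027540.13, chr2:167932057-167979385, plus strand) started 243 kb apart and shared 36 sites, and together they had 91. Cebpg (ENSMUSG00000056216.9, chr7:35046422-35056573, minus strand) and Cebpa (ENSMUSG00000034957.10, chr7:35119293-35121928, plus strand) started 62.7 kb apart, shared 30 sites and together had 34. Cebpd (ENSMUSG00000071637.5, chr16:15887286-15891031, plus strand) had 9 sites. Per gene there were 70 sites at Cebpb, 57 at Ptpn1, 33 at Cebpa, 31 at Cebpg and 9 at Cebpd. The median over all protein-coding genes was 12, so Cebpd lay below it and the other 4 above it.

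Peak lists of the series differed in length from 12458 regions in ctrl. 2 to 39136 in CORT 2, and the 2 ctrl. lists held 36234 and 12458. The library names attached to the deposited lists followed one style for ctrl. 1 and both CORT libraries and another for ctrl. 2 and both cal. res. libraries. Whether these styles stand for batches is not given, and cal. res. and CORT cannot be told apart from the style. The study gives one nominal read number for its ChIP-seq and the lists hold no read counts, so the depth of each library is unknown. Fold enrichment, the authors' ratio of summit pileup to local background, was therefore used only to rank regions within their own list, as a percentile in which the strongest region stands at 100.

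Around the 5 genes, ctrl. 1 and ctrl. 2 had a peak at 86 and 44 sites, cal. res. 1 and 2 at 71 and 62, and CORT 1 and 2 at 69 and 116. The ctrl. libraries thus lay on either side of both cal. res. libraries, and the counts followed the order of list lengths except that CORT 1, the third longest list, stood below cal. res. 1. Sites with a peak in both libraries of a group are called held by that group. Of the 134 sites, 43 were held by ctrl. (32.1%), 52 by cal. res. (38.8%) and 63 by CORT (47.0%). Over all 51431 sites the respective shares were 21.4%, 27.9% and 43.7%. A peak in all 6 libraries was found at 33 sites (24.6%), against 15.7% of all sites. With 12458 regions taken from every library, ctrl. held 33 sites near the 5 genes, cal. res. 38 and CORT 31. Over all 21415 sites at that length the shares were 36.0%, 42.5% and 42.2%, so CORT had the most neither here nor over the series.

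**Figure D1:**
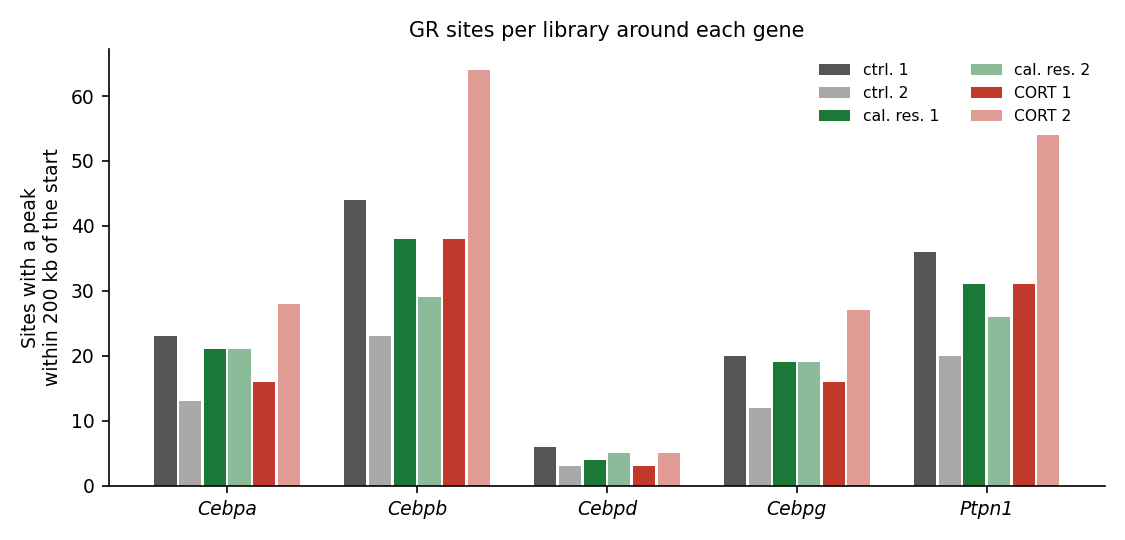
Number of GR sites with a peak within 200 kb of the start of each gene (y axis), by gene (x axis) and library (bars, ctrl. grey, cal. res. green, CORT red, replicate 2 paler). CORT 2 had the most sites at Cebpb (64), Ptpn1 (54), Cebpa (28) and Cebpg (27), and ctrl. 1 had the most at Cebpd (6).

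Sites with a peak in 1 list only were mostly weak. Some sites missing from other lists ranked high, such as Cebpb+30.6 (4 lists, 95.7 in ctrl. 1) and Cebpa+15.6 (5 lists, 92.3 in ctrl. 1). A peak in 1 list only was found at 42 sites (31.3%, against 37.4% of all sites), 27 of them in CORT 2 (64.3%, against 45.2%), with a median percentile of 20.9 and a highest value of 63.0. A peak in 5 lists was found at 14 sites, and the missing list was ctrl. 2 at 8 of these, CORT 1 at 3, cal. res. 2 at 2 and cal. res. 1 at 1. Over the series ctrl. 2 was the missing list at 72.7% of the 6110 sites with a peak in 5 lists and CORT 1 at 2.85%. At the outer edge of the 200 kb window, the Cebpb site farthest from the start (199.5 kb downstream) had a peak in 5 lists. The nearest Cebpb site left out (203.1 kb upstream of it) had a peak in 1 list, at percentile 11.8. Between 12.1% (CORT 2) and 20.5% (ctrl. 2) of the sites that a list had near the 5 genes stood at percentile 95 or higher in it, against 5.13% to 5.31% of all sites of a list.

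The strongest GR site of the series lay between Cebpb and Ptpn1. It was found at chr2:167841323-167845348, 154 kb downstream of the Cebpb start and 88.7 kb upstream of the Ptpn1 start, and is called Ptpn1-88.7 here, after the nearest of the 5 genes and the distance in kb. Its centre was intergenic, 9.69 kb upstream of the long noncoding RNA gene 1200007C13Rik. The fold enrichment was 183 and 99.3 (ctrl.), 252 and 191 (cal. res.), 154 and 283 (CORT). This was the highest value of the list in ctrl. 1, ctrl. 2, cal. res. 1, cal. res. 2 and CORT 2. In CORT 1 it was the second highest, after a region at chr7:63896304-63897732 with a fold enrichment of 159. By mean percentile it stood in place 1 of the 8097 sites with a peak in all 6 libraries, ahead of sites near E030018B13Rik, Slc45a1 and Zfp36. The 6 strongest summits lay within 20 bp of one another.

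The sequence of 200 bases around this summit (chr2:167844635-167844834, plus strand, from the RefSeq GRCm38.p6 genome) is shown because the peak was the strongest. It carried none of the 7 motifs searched for and therefore has no capitals.

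Ptpn1-88.7: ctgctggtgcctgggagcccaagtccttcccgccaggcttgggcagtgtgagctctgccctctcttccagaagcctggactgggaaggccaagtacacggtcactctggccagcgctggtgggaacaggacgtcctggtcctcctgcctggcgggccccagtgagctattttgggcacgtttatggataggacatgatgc

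Ptpn1-88.7 was 1 of 15 sites between the starts of Cebpb and Ptpn1 with a peak in all 6 lists, and of these 15 sites 6 stood at percentile 95 or higher in every list. These were Cebpb+88.3, Ptpn1-108.5, Ptpn1-102.5, Ptpn1-88.7, Ptpn1-79.4 and Ptpn1-71.3. They spanned chr2:167776107-167861483, and no protein-coding gene started between them. In the whole series 358 sites met the same criterion, and only 4 protein-coding genes had more than 6 of them within 200 kb, the median gene having 0. Around the 5 genes the only other site that met it was Cebpa+48.9.

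**Figure D2:**
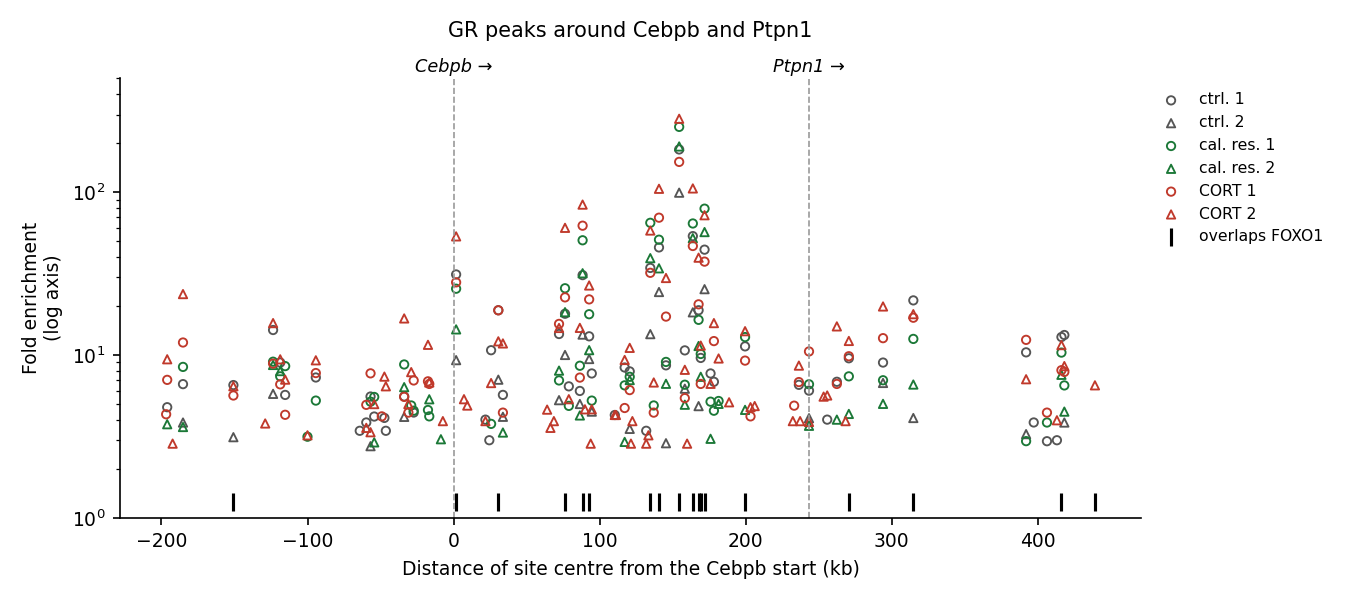
Fold enrichment of each GR peak (y axis, log scale, the authors' ratio, comparable within a library only) against the distance of the site centre from the Cebpb start in kb (x axis). Symbols are the 6 libraries, black ticks mark sites that overlap a FOXO1 region, and dashed lines mark gene starts. The tallest column is Ptpn1-88.7, with values from 99.3 to 283, while the column at the Ptpn1 start stays at 10.5 or below.

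Ptpn1-102.5 (chr2:167826806-167832240) covered most of the 1200007C13Rik gene, and its strongest summits lay in an exon of it. It ranked at percentile 99.6 and 99.4 (ctrl.), 99.3 and 98.8 (cal. res.), 99.8 and 99.9 (CORT). The site held 6 clusters of summits, of which 3 were present in all 6 lists.

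Ptpn1-79.4 (chr2:167851203-167854179, intergenic) consisted of 3 clusters of summits, each of them present in all 6 lists and each with a FOXO1 summit. The percentiles were 99.8 and 98.7 (ctrl.), 99.6 and 99.6 (cal. res.), 99.4 and 99.9 (CORT). Ptpn1-71.3 (chr2:167859941-167861483) lay in an intron of the long noncoding RNA gene Gm14319, at percentile 99.6 and 99.5 (ctrl.), 99.7 and 99.6 (cal. res.), 98.7 and 99.7 (CORT). Ranks so near the top of a list leave little room for a difference between groups.

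Cebpb+88.3 (chr2:167776107-167778357) had its summit in an intron of the long noncoding RNA gene Gm14321, at percentile 98.9 and 97.2 (ctrl.), 99.3 and 98.6 (cal. res.), 99.7 and 99.8 (CORT). Ptpn1-108.5 (chr2:167822873-167824271, intergenic) stood at percentile 99.2 and 97.2 (ctrl.), 99.6 and 99.1 (cal. res.), 98.0 and 99.4 (CORT). At both sites ctrl. 2 was the lowest library. The gene starts between Cebpb and Ptpn1 were those of Tmem189, whose product is an enzyme of plasmalogen synthesis, and of the long noncoding RNA genes A530013C23Rik, Gm14321, 9230111E07Rik, 1200007C13Rik and Gm14319.

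Next to this strip, the start of Cebpb itself lay in 1 long site (chr2:167686227-167695067, called Cebpb+1.7) of 8841 bp, which held 18 clusters of summits. The percentiles were 98.9 and 93.4 (ctrl.), 97.0 and 93.5 (cal. res.), 97.2 and 99.3 (CORT). Only 2 of the 18 clusters were present in all 6 lists. The first of them was at 167687811 to 167687838, 1.1 kb upstream of the Cebpb start, and had a fold enrichment of 31.3 and 9.3 (ctrl.), 25.5 and 14.4 (cal. res.), 24.4 and 53.5 (CORT). The other, at 167694232 to 167694447, was beyond the end of the gene, with values of 4.5 to 15.7. The centre of this site was outside the 1 kb that defined a promoter site, although the site spanned the gene.

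By contrast, the peak at the Ptpn1 start was weak. Ptpn1+0.2 (chr2:167931794-167932646, in the first part of the gene) was present in all 6 lists with a fold enrichment of 6.0 and 4.1 (ctrl.), 6.6 and 3.7 (cal. res.), 10.5 and 3.9 (CORT). Its percentiles ran from 19.3 to 76.7, and the groups overlapped. In order of mean percentile it stood in place 7484 of 8097.

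The other 3 promoter sites were also present in all 6 lists. The site at the Cebpd start (Cebpd-0.2, chr16:15886649-15887510) ranked at percentile 56.8 and 47.4 (ctrl.), 28.6 and 48.2 (cal. res.), 76.7 and 54.5 (CORT). The site at the Cebpg start (Cebpg+0.4, chr7:35055609-35056809) ranged from 19.7 in cal. res. 1 to 91.8 in CORT 1, with replicates up to 57.0 points apart. The site at the Cebpa start (Cebpa-0.8, chr7:35116325-35120575) was higher, at 91.7 and 76.3 (ctrl.), 91.3 and 87.6 (cal. res.), 90.5 and 84.2 (CORT). These values do not all belong to 1 summit. Those of ctrl. and cal. res. came from summits upstream, at 35116677 to 35116713. Those of CORT came from summits near the start, at 35119151 to 35119241. Near the start the fold enrichment was 13.5 and 4.4 (ctrl.), 7.7 and 4.6 (cal. res.), 16.8 and 11.5 (CORT). For the whole sites at Ptpn1, Cebpg and Cebpa, the replicates of at least 1 group lay farther apart than any group means. At the Cebpd start they did not, since both CORT libraries ranked above both cal. res. libraries.

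The strongest site around Cebpa and Cebpg was Cebpa+48.9 (chr7:35167688-35168600, intergenic), between Cebpa and Slc7a10. Its percentiles were 99.5 and 96.0 (ctrl.), 97.4 and 97.9 (cal. res.), 97.9 and 99.1 (CORT). Next came Cebpa-28.6 (chr7:35090366-35091094), in an exon of the long noncoding RNA gene Gm35611, with 92.2 and 98.7 (ctrl.), 98.4 and 95.2 (cal. res.), 98.7 and 85.8 (CORT). The third was Cebpa+24.6 (chr7:35143070-35144794, intergenic) with 96.7 and 88.5, 92.2 and 85.9, and 88.7 and 96.8 in the same order. All 3 lay within 200 kb of the Cebpg start as well, so Cebpa and Cebpg had the same 9 sites with a peak in all 6 lists.

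**Figure D3:**
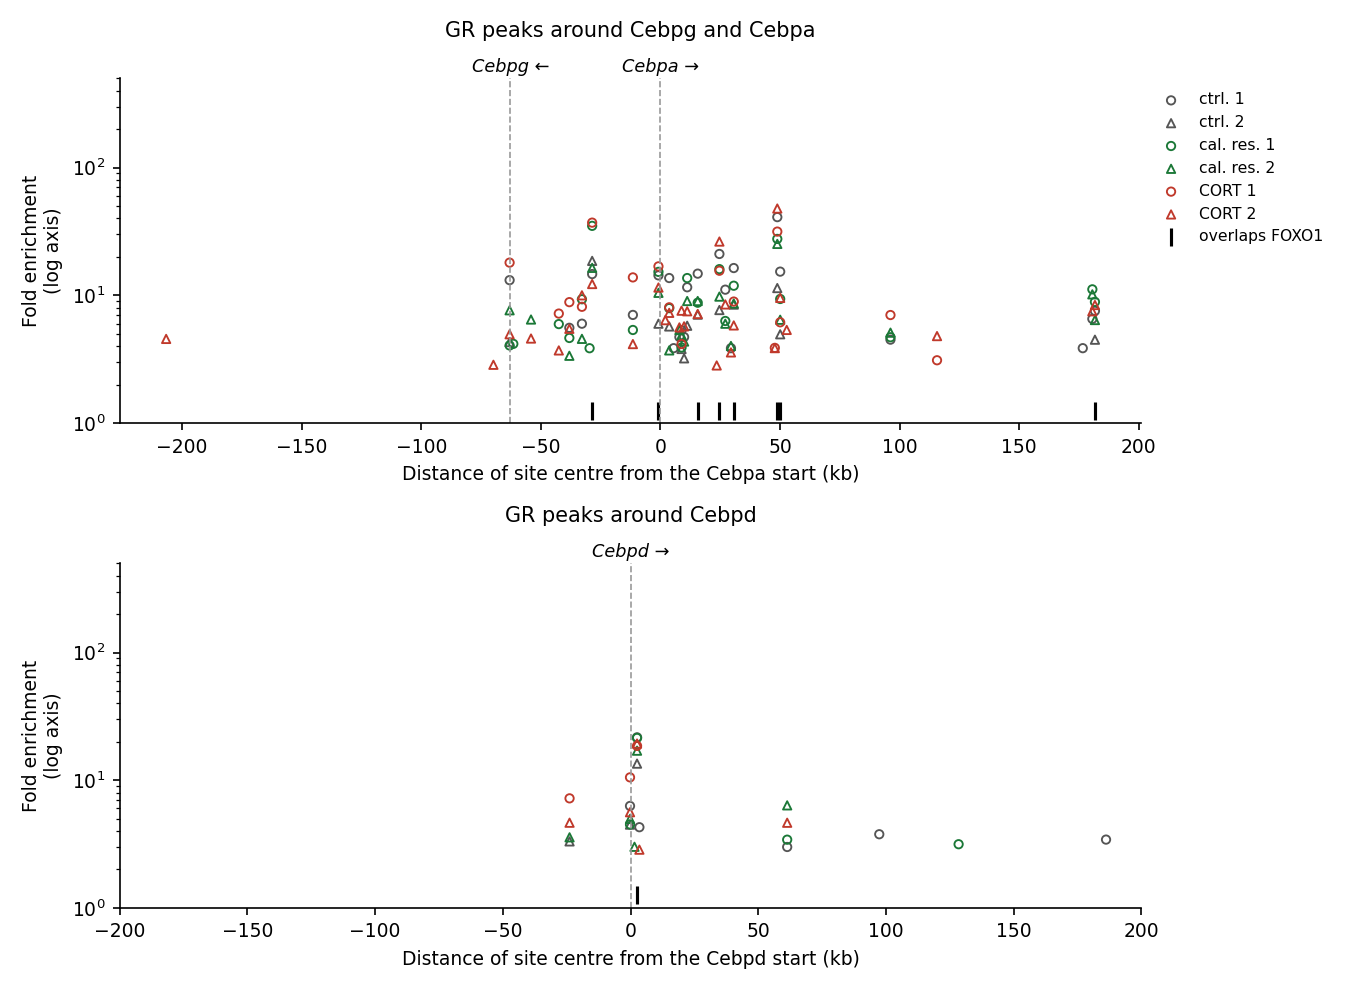
Fold enrichment of each GR peak (y axis, log scale, comparable within a library only) against the distance of the site centre from the Cebpa start (upper panel) or the Cebpd start (lower panel) in kb; symbols, ticks and dashed lines as on the Cebpb and Ptpn1 map. Around Cebpa the peaks were spread on both sides of the start and reached 47.8 at Cebpa+48.9, and around Cebpd 1 site, Cebpd+2.5, stood above the others.

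At Cebpd 1 site ranked far above the others. Cebpd+2.5 (chr16:15889520-15890141) lay 2.5 kb downstream of the start, in an annotated UTR of Cebpd that is also an intron of Spidr on the opposite strand. The percentiles were 96.9 and 97.3 (ctrl.), 95.6 and 95.5 (cal. res.), 92.3 and 94.0 (CORT). Both ctrl. libraries were above both cal. res. libraries, which were above both CORT libraries, over a span of 4.95 points. The fold enrichment was 21.7 and 13.5, 21.4 and 17.03, and 18.6 and 19.4, an order that the fold values of the libraries do not keep. The other 7 Cebpd sites apart from the promoter site were present in at most 4 lists, and only Cebpd-23.9 and Cebpd+61.3 were present in more than 2.

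**Figure D4:**
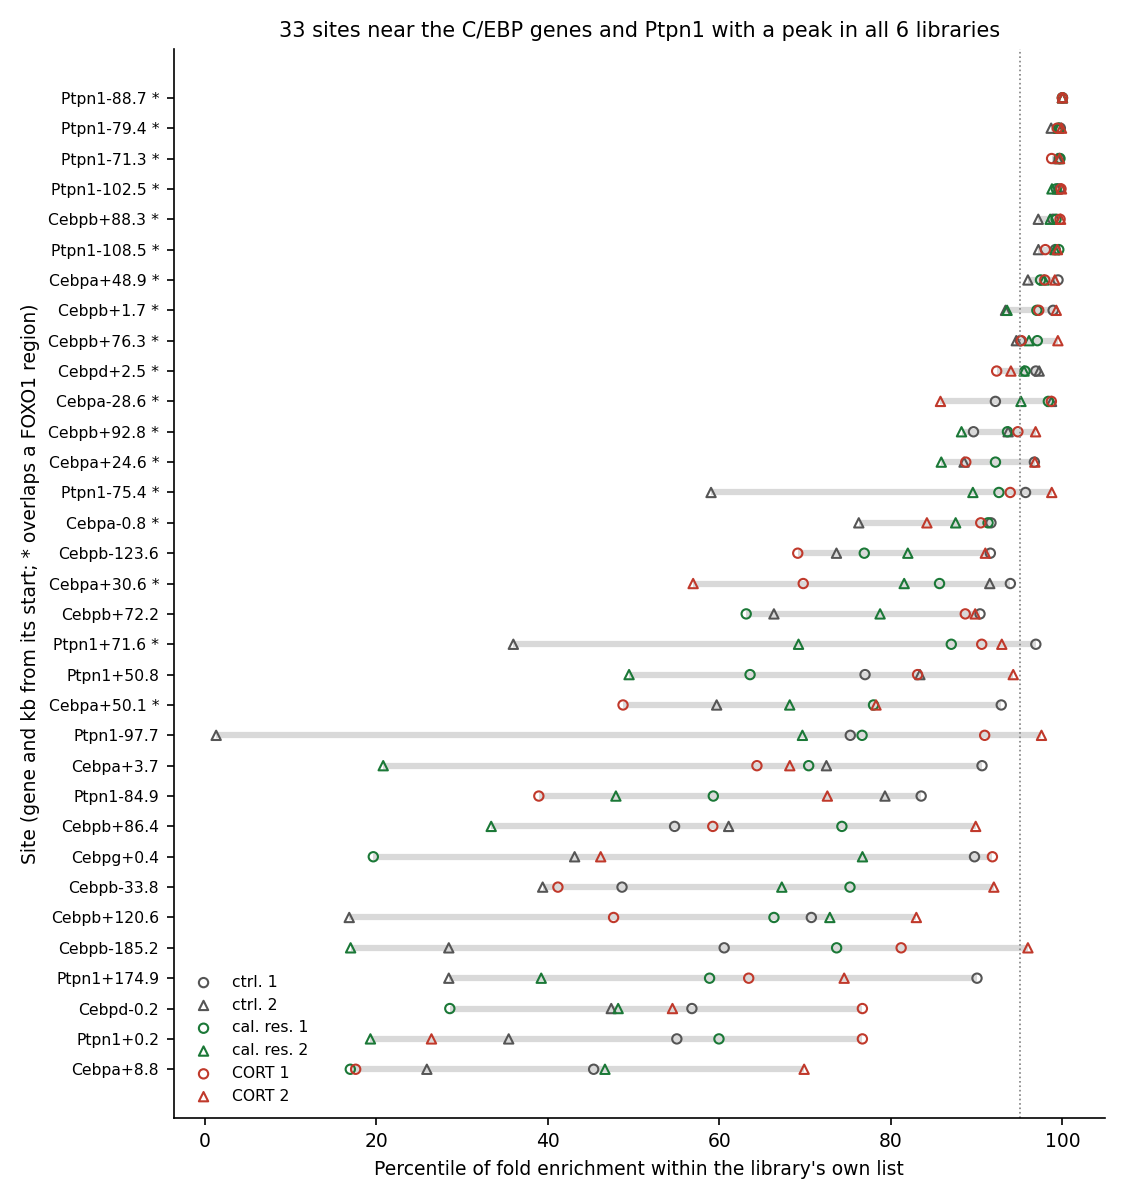
Within-list percentile of fold enrichment (x axis) in each of the 6 libraries (symbols) for the 33 sites with a peak in all of them (y axis, named by the nearest of the 5 genes and the distance in kb, sorted by mean percentile); grey bars join the lowest and highest library, the dotted line is percentile 95, and an asterisk marks overlap with FOXO1. By definition the 7 sites at 95 or higher in every library lie to the right of the line, and the other 26 spread over 4.85 to 96.2 points.

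The 7 sites at percentile 95 or higher in every list cannot differ by over 5 points, since the percentile ends at 100, and ranks there say little about the groups. The other 26 of the 33 sites varied over the 6 libraries by a median of 44.7 points. The cal. res. mean percentile minus the ctrl. mean had a median of -0.74 points over the 33 sites, against 0.141 over all 8097 sites. For CORT minus ctrl. the median was 2.47 points, against 7.80 over all 8097 sites, and with 12458 regions per library it was 0.13 points. The SD between the median percentiles of the replicates was 10.9 points in ctrl., 2.91 points in cal. res. and 1.74 points in CORT, so the ctrl. pair alone spread by more than either difference. Within one naming style, the cal. res. median minus ctrl. 2 alone was 1.83 points, and the CORT median minus ctrl. 1 alone was -0.96 points, so both differences had the other sign. These 2 values were taken over the 34 and the 41 sites with a peak in all remaining libraries. The set of sites therefore changed along with the ctrl. library.

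At 3 of the 33 sites both cal. res. libraries ranked above both ctrl. libraries, against 11.5% of all 8097 sites, and at 6 sites they ranked below, against 20.6%. Both counts were near, and slightly below, the shares of the series. The cal. res. ranks were higher at Cebpb-33.8, Cebpb+76.3 and Ptpn1-71.3 and lower at Cebpd+2.5, Ptpn1-102.5, Ptpn1-84.9, Ptpn1+50.8, Cebpa+3.7 and Cebpa+30.6. At Cebpb-33.8 the mean was 71.3 in cal. res. and 44.0 in ctrl., with replicates at most 9.25 points apart in both groups. At Ptpn1-84.9 it was 53.6 against 81.4, and at Ptpn1+50.8 56.5 against 80.2, again with the replicates closer together than the means. At Cebpa+3.7 the cal. res. replicates were 49.6 points apart. Both CORT libraries ranked above both ctrl. libraries at 6 sites, against 26.6% of all sites, and below them at 4 sites, against 5.2%. The first count lay below the share of the series and the second above it. All 6 sites with higher CORT ranks were on chromosome 2, which held 22 of the 33 sites: Cebpb-185.2, Cebpb+76.3, Cebpb+88.3, Cebpb+92.8, Ptpn1-102.5 and Ptpn1-97.7. The largest of these differences was at Ptpn1-97.7, where ctrl. stood at 75.3 and 1.34 and CORT at 90.9 and 97.6, so that ctrl. 2 set most of it. The sites with lower CORT ranks were Cebpd+2.5, Ptpn1-84.9, Cebpa+3.7 and Cebpa+30.6. With 2 libraries against 2 the smallest exact p of a permutation test is 0.333, and none was computed.

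The Cebpa block differed from the Cebpb block in the sites missing from CORT 1 alone and in the CORT counts at equal list length. All 3 sites with a peak in every list but CORT 1 were on chromosome 7: Cebpa+11.2, Cebpa+15.6 and Cebpa+181.7, against 174 such sites in the series. At Cebpa+15.6 the percentiles were 92.3 and 85.7 (ctrl.), 75.2 and 83.3 (cal. res.) and 67.2 (CORT 2). With 12458 regions per library, ctrl. held 10 of 22 Cebpa sites, cal. res. 12 and CORT 5, while over all sites at that length CORT held 42.2% and cal. res. 42.5%. At Cebpb the numbers were then 18, 20 and 19 of 39 sites, and at Ptpn1 18, 21 and 20 of 30. At that length CORT 1 had a peak at 11 of the 22 Cebpa sites and CORT 2 at 9. In the full lists ctrl. held 13 of 33 Cebpa sites, cal. res. 17 and CORT 15. This CORT share was 45.5%, against 50% at Cebpb and 43.7% of all sites. At Cebpa+30.6 (chr7) both CORT libraries, at 69.8 and 56.9, lay below both cal. res. libraries, at 85.7 and 81.5, and below both ctrl. libraries, at 93.9 and 91.5. The difference between the blocks was not tested.

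Sites with a peak in both libraries of 1 condition and none elsewhere numbered 4, all of CORT, whose second library had the longest list. Their share over the series is not given here. With no ctrl. peak, CORT held 8 of the 134 sites and 2203 of all 51431, and cal. res. held 2 and 433. A single site, Cebpb-16.6 (chr2:167671803-167672737, in an intron of Tmem189), was held by cal. res. and CORT with no peak in either ctrl. library, against 0.408% of all sites. It stood at percentile 22.9 and 55.1 in cal. res. and at 53.4 and 64.8 in CORT, so it was of middle rank. Of the 16 sites that cal. res. held and ctrl. did not, 14 had a peak in ctrl. 1 (87.5%, against 91.8% over the series) and 0 had one in ctrl. 2 (against 0.929%).

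The sites held by cal. res. alone numbered 7 (5.22%, against 2.39% of all sites), and those held by CORT alone 16 (11.9%, against 15.2%). The former were Cebpd+61.3, Cebpb-54.3, Ptpn1-67.2, Ptpn1-61.7, Cebpa+27.1, Cebpa+96.2 and Cebpa+180.6, and each of them had a peak in at least 1 library of another group. Of these, Ptpn1-61.7 (chr2:167870087-167870567, intergenic) had no ctrl. peak, with percentiles of 41.9 and 49.5 in cal. res. and 78.2 in CORT 2. Sites with peaks in both CORT libraries and in no other library numbered 4, Cebpb-30.9, Ptpn1-39.9, Cebpa+47.8 and Cebpa+115.6, and the highest percentile among them was 47.4.

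A site missing from both cal. res. lists was found downstream of Cebpb. Cebpb+30.6 (in an intron of the long noncoding RNA gene A530013C23Rik) stood at percentile 95.7 and 85.7 in ctrl. and at 92.6 and 85.5 in CORT. Neither cal. res. list had a peak there, and the nearest cal. res. summits were 5163 and 3070 bp from the FOXO1 summit in this site. The FOXO1 list, which was made from calorically restricted livers, nevertheless held a region in it, with a fold enrichment of 6.61. Sites held by ctrl. and CORT with no cal. res. peak made up 1.04% of all sites, and there were 2 near the 5 genes. The other was Cebpb-150.7, at the start of Snai1, with percentiles of 60.1 and 6.51 in ctrl. and 42.9 and 62.6 in CORT, and it overlapped FOXO1 too. Both sites were singled out after their values were seen.

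FOXO1 overlapped 27 of the 134 sites (20.1%), against 13.9% of all GR sites. Among the 33 sites with a peak in all 6 lists it overlapped 18 (54.5%), against 50.7% of the 8097 such sites, so the second share was near the background. Seen from the other side, 34 of the 8068 FOXO1 regions lay within 200 kb of the 5 genes, and 33 of them overlapped a GR site (97.1%, against 93.6% of all FOXO1 regions). The exception was chr2:168117112-168117554, 185 kb downstream of the Ptpn1 start, with a fold enrichment of 4.78 and the nearest GR summit 10372 bp away.

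The strongest GR sites of these genes overlapped FOXO1. Each of the 15 sites with the highest mean percentile among the 33 overlapped FOXO1. The highest site without it, Cebpb-123.6, stood at a mean of 80.7. The share of FOXO1 overlap among sites of similar rank over the series is not given here. The paper reports, over the genome, a stronger GR signal at loci shared with FOXO1 than at loci with GR alone. Whether the pattern is particular to these genes was not tested. Weaker sites overlapped FOXO1 as well, since 9 of the 27 sites with FOXO1 had a peak in fewer than 6 lists, and the lowest of the other 18 stood at a mean of 71.0. The sites with FOXO1 were also longer, with a median of 1586 bp against 887 bp, and the part of length in this was not tested. In each GR list, between 23 and 28 of the 33 regions had a GR summit within 100 bp of the FOXO1 summit. The 3 FOXO1 regions with the highest fold enrichment were at Cebpb+76.3 (22.6), Cebpa+24.6 (21.0) and Ptpn1-102.5 (20.6), and the one at the Ptpn1-88.7 summit followed with 19.6.

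Motifs were searched as letters, in either orientation, in a window of 200 bp centred on the summit of the library that ranked the site highest, and a match is a description of the sequence only. The GR half-site AGAACA was found in 4 of the 33 windows (12.1%), against 20.02% of the 8095 sites with a peak in all 6 lists whose window could be read. The GRE, searched as GNACA and TGTNC with 3 bases between, was found in 2 (6.06% against 4.52%). The FOX motif TGTTTAC was found in 4 (12.1% against 6.15%) and the STAT motif TTCNNNGAA in 4 (12.1% against 9.29%). The C/EBP motif TTNNGCAA was found in 5 (15.2% against 17.4%), the HNF4 motif CAAAGNNCA in 3 (9.09% against 12.98%) and the cAMP response element TGACGTCA in 1 (3.03% against 1.10%). The GRE and the half-site can share letters, as can the half-site and the STAT motif.

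The windows of 4 further sites are shown, and capitals mark the motif matches. Ptpn1-79.4 and Ptpn1-71.3 were chosen because they came next after Ptpn1-88.7 in mean percentile. Cebpb+76.3 and Cebpa+24.6 were chosen because their FOXO1 regions had the highest fold enrichment. Ptpn1-102.5 and Ptpn1-88.7, which followed in FOXO1 fold enrichment, had no FOX match in their windows. Ptpn1-71.3 has a cAMP response element and a GRE, Ptpn1-79.4 a C/EBP motif and a GR half-site, Cebpb+76.3 a FOX and 2 STAT motifs, and Cebpa+24.6 a FOX motif. They are chr2:167860646-167860845, chr2:167853554-167853753, chr2:167765200-167765399 and chr7:35143914-35144113, all on the plus strand.

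Ptpn1-71.3: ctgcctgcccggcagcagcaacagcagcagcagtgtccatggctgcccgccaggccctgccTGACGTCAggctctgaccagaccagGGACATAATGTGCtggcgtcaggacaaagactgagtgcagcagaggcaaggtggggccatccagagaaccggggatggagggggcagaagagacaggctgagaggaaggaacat

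Ptpn1-79.4: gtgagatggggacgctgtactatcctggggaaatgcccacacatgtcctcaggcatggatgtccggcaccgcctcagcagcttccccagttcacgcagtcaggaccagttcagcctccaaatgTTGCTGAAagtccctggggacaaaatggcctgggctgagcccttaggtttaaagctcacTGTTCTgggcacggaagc

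Cebpb+76.3: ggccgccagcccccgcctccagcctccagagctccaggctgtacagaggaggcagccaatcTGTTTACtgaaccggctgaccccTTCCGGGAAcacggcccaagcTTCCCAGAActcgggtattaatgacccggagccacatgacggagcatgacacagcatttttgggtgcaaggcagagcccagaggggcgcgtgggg

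Cebpa+24.6: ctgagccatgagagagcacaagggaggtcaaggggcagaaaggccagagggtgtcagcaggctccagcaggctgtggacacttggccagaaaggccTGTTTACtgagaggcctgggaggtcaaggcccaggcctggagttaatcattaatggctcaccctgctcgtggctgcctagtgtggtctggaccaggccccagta

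The matches lay at various distances from the summits. In Cebpb+76.3 (percentiles 95.1 and 94.6 (ctrl.), 97.1 and 96.1 (cal. res.), 95.2 and 99.5 (CORT)) both STAT motifs were within 12 bp of the summit and the FOX motif was 36 bp from it. In Cebpa+24.6 the FOX motif was 1 bp from the summit. In Ptpn1-71.3 the GRE was 8 bp and the cAMP response element 36 bp from the summit. In Ptpn1-79.4 the C/EBP motif was 26 bp and the GR half-site 84 bp from it. At Cebpd+2.5 the GRE GGACATTTTGTTC (chr16:15889834-15889846, plus strand) was 24 bp from the summit.

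Matches to the full GR palindrome, AGAACA and TGTTCT with 3 bases between, were also counted with mismatches allowed among its 12 letters, a search added after the strict one gave few matches. None of the 33 windows came within 2 mismatches of it, against 5.57% of all sites with a peak in all 6 lists. Among the 358 sites at percentile 95 or higher in every list the share was 27.7%, but only 7 of the 33 sites met that criterion. With up to 3 mismatches there were 8 of 33 (24.2% against 18.9%). Of the 7 strongest sites of the 5 genes, 5 then had a match, Ptpn1-108.5, Ptpn1-88.7, Ptpn1-79.4, Ptpn1-71.3 and Cebpa+48.9, against 59.8% of the 358. In Ptpn1-88.7 that match was centred 28 bp from the summit.

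Compared with related genes, the Cebpb and Ptpn1 windows held more sites. Among other bZIP genes of the C/EBP family and its partners, the number of sites was 41 at Ddit3, 24 at Atf5, 22 at Cebpe, 19 at Batf3 and 11 at Atf4, and it was 19 at Cebpz, which shares the name but encodes a CCAAT-binding factor without a bZIP domain, and the number in all 6 lists was at most 7. Among phosphatases and kinases of insulin and JAK signalling, it was 48 at Ptpn6, 40 at Ptprf, 35 at Insr, 30 at Tyk2, 29 at Jak2, 13 at Ptpn2 and 13 at Ptpn11, with at most 10 in all 6 lists. Cebpb and Ptpn1 each had 18 in all 6 lists, a number that 22 of the 21951 protein-coding genes exceeded. Cebpb had more sites than 99.7% of protein-coding genes, Ptpn1 than 99.1%, Cebpa than 87.5%, Cebpg than 85.0% and Cebpd than 39.9%.

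**Figure D5:**
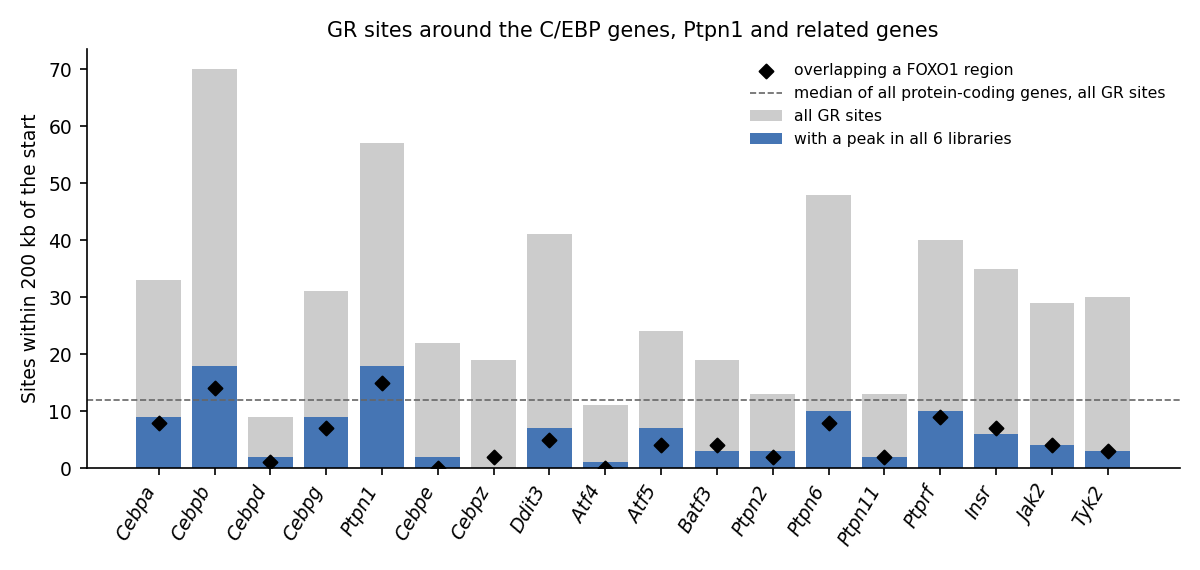
Number of GR sites within 200 kb of the start (y axis) for the 5 genes, for related bZIP genes and Cebpz, and for phosphatase, kinase and receptor genes (x axis): grey bars all sites, blue bars sites with a peak in all 6 libraries, diamonds sites overlapping FOXO1, dashed line the median number of all sites over protein-coding genes (12). Cebpb (70) and Ptpn1 (57) have the tallest bars, and Cebpd (9) the shortest.

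The genes with the most similar counts were found by adding up, over the 6 lists, the absolute differences in the number of sites with a peak, among protein-coding genes over 400 kb from the 5. For Cebpb they were Rdh1 and Rdh16f1, retinol dehydrogenase genes on chromosome 10 with the same counts as each other, at a summed difference of 11. For Ptpn1 they were Agmat (7), then Ddi2 and Rsc1a1 (10 each). For Cebpa the nearest was Tsku (9), with 7 genes tied at 11, and for Cebpg Clec12a (6), with 4 tied at 8. For Cebpd, with few sites, 12 genes tied at a difference of 2.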

How the data were processed

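GR ChIP-seq peak lists of 6 mouse liver libraries and 1 list of merged FOXO1 libraries were analysed, grouped by sample titles. Per the methods of the study and the submitters' processing notes, the authors aligned reads to mm10 with BWA, removed duplicates with Picard and called peaks with MACS2. Blacklisted regions were removed with bedtools, and whether this included FOXO1 and whether an input served as control are not given in the sources used here. The deposited fold enrichment is the caller's ratio of summit pileup to local background. The deposited -log10 p-values and -log10 q-values come from the caller's model, with a largest q of 0.0998 in a GR list and 9.84e-06 in the FOXO1 list. The depth of each library was not given beside a nominal read number, so peak number moves with depth by an unknown amount.

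Where rows shared start and end, only the one with the largest fold was kept, and regions sharing at least 1 bp were merged into sites. Percentiles are ranks of fold enrichment within a list. Genes came from GENCODE M21 basic, and peak ends lay within the GRCm38 chromosomes. Sites were named when within 1 kb of a start, among the 3 with the highest mean percentile of a gene, held by 1 group with no peak elsewhere, held by cal. res. alone, held by cal. res. and CORT with no ctrl. peak, or when singled out as stated. The FOXO1 regions named were the top 3 and those off GR sites. The 5 genes, the lists of related genes and the motifs were chosen with earlier results of these data known, and no test was run. The sequence of 1 site is not reported here. Python 3.11.15, pandas 2.3.3 and pysam 0.24.0 were used, and merging and ranking were tested on simulated data. Alternatives were windows of 100 kb and 50 kb, stricter q, equal list length, ranks by p-value, other overlap rules, either library of a group, and leaving out each library.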

Additional observations from a re-analysis of the deposited data

Results flagged for a closer look

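At Ptpn1-102.5 cal. res. and CORT lay on opposite sides of ctrl. Both cal. res. libraries (99.3 and 98.8) ranked below both ctrl. libraries (99.6 and 99.4), and both CORT libraries (99.8 and 99.9) ranked above them. The CORT mean percentile exceeded the cal. res. mean by 0.833 points, and the difference was not tested. Every library ranked this site near the top of its list, where ranks say little about the groups. The share of sites over the series with this order of the groups is not given here. The naming style of the libraries moves with the comparison of cal. res. with CORT.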

How the results depend on the processing

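No paired analysis was possible because the results come from no test. Of 95 recomputed values, 79 kept within 1.5 times the count, or within the larger replicate SD, that of ctrl. All 16 values outside these limits were counts. Both median differences, with 12 recomputed values each, were far smaller than that SD. They therefore kept within it even where the sign changed. With a window of 50 kb there were 63 sites, of which ctrl. held 18, cal. res. 21 and CORT 29, 13 had a peak in all 6 lists and 11 overlapped FOXO1. With q of at most 1e-05, ctrl. held 26 sites and 21 had a peak in all 6. With 12458 regions per library there were 74 sites, CORT held 31, and 21 had a peak in all 6. With a peak in either library, ctrl. held 87, cal. res. 81 and CORT 122. Leaving out 1 library at a time gave 43 to 86 sites for ctrl. (86 without ctrl. 2) and 63 to 117 for CORT (117 without CORT 1). The median difference of cal. res. from ctrl. was positive under 4 alternatives, with a range of -4.62 to 1.83, and that of CORT was negative without ctrl. 2, at -0.96, and 0.13 with 12458 regions per library. Each stayed within the SD of the ctrl. replicates, 10.9 points. The unknown depth of each library limits every statement on an absent peak.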
